A study of Mus musculus with 33 samples.

Results

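The 10 genes described here encode the main components of the early embryonic basement membrane, the laminin chains Lama1, Lama5, Lamb1 and Lamc1, the type IV collagen chains Col4a1 and Col4a2, the nidogens Nid1 and Nid2, perlecan (Hspg2) and Sparc. They were picked by symbol, with no measured value in the rule, but with earlier results of these data known. All 10 were present and tested among the 16336 genes of the table. Poly-A RNA was sequenced from E14Tg2a, a mouse embryonic stem (ES) cell line of strain 129/Ola that served as wild type, and from ΔK9.1 and ΔK9.2 (dK9.1 and dK9.2 in the labels), each a single E14Tg2a clone in which the region between the Nanog enhancer and promoter was deleted on both alleles by Crispr/Cas9. All lines were grown on gelatine in DMEM with FCS and LIF (day 0, undifferentiated) and were differentiated in parallel as embryoid bodies (EBs) in DMEM with FCS for 4, 6 or 8 days. The aggregates were kept off treated plastic for 4 days and were then put back on gelatine at low density, so that days 6 and 8 are adherent outgrowths, and this change of culture lies between days 4 and 6 in every line. Each line had replicates 1, 2 and 3, from independent assays, on days 0, 4 and 8 and replicates 2 and 3 on day 6, which makes 12 groups and 33 libraries.

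A basement membrane is a thin sheet of extracellular matrix on which epithelia rest. Laminin trimers, built from 1 alpha, 1 beta and 1 gamma chain, polymerise at the cell surface first, type IV collagen forms a second network, and nidogens and the proteoglycan perlecan bridge and stabilise them. In EBs the outer layer of primitive endoderm lays down a basement membrane that separates it from the inner cells, and its parietal and visceral derivatives remain rich sources of these proteins in the embryo. Endothelium, mesenchyme and other cell types of older EBs make them as well.

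Values are TPM, the share of all transcripts in a library, which are scaled by transcript length and library total, so that levels can be set side by side between genes. A comparison was called when the limma adjusted p, taken over all 16336 genes, was under 0.05 and the absolute log2 fold change of TPM + 1 exceeded 1. Nanog, which the deletion adjoins, was at 22.0 to 34.6 TPM in the E14Tg2a libraries of day 8 and at 49.3 to 177 TPM in those of the clones. Replicate 1 stood apart early in the course. On day 0, the 10 genes summed to 1182 TPM in E14Tg2a replicate 1 and 796 TPM in ΔK9.2 replicate 1, against 451 to 649 TPM in the other 7 libraries. The same 2 libraries were high in the 8 transcription factor and receptor genes that mark primitive endoderm, some of them active in other endoderm as well. These summed to 59.9 and 37.0 TPM, against 3.15 to 9.29 TPM in the other 7. On day 4, replicate 1 was again the highest of E14Tg2a and of ΔK9.2, with the 10 genes at 1413 and 855 TPM in sum. E14Tg2a replicate 3 lay between them that day, at 941 TPM. Values with replicates 2 and 3 only are therefore printed beside several results that use days 0 and 4.

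The type IV collagen pair is printed first because its genes lie head to head and share a start region. In mm10, Col4a1 occupies chr8:11198423-11312826 on the minus strand and Col4a2 chr8:11312805-11449287 on the plus strand. Their RefSeq start sites (GRCm38.p6) are 21 bases apart, and the windows from 250 bases before to 50 bases after each start share 78 bases. These are shown in capitals, as each strand reads them, 5′ to 3′. The Col4a1 window is chr8:11312777-11313076 and the Col4a2 window chr8:11312555-11312854.
Col4a1: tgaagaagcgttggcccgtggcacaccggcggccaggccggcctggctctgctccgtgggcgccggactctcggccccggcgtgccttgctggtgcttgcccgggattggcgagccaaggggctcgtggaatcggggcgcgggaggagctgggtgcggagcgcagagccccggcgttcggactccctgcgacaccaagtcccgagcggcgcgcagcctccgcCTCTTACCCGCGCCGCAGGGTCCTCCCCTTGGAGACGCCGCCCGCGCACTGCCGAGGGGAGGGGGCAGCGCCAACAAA
Col4a2: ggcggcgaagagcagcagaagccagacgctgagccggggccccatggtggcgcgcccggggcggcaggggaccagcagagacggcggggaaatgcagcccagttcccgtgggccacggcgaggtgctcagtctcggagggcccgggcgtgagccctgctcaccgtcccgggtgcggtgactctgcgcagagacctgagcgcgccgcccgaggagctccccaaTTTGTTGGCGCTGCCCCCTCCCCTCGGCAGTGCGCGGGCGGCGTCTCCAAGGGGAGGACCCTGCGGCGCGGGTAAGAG
Both windows are rich in G and C, at 74% and 73.7%, against a median of 52.7% over the 32851 mouse promoters of the same length. The letters GGGCGG, the core of a GC box, occurred on either strand once in the Col4a1 and 3 times in the Col4a2 window, and 35.7% of all promoters held it. CCAAT occurred once in each, and in 37.4% of all promoters. Of the 10 genes, 7 had a window in the table (Lama1, Lamc1 and Nid2 had none). None of the 7 held AGATAA or TGATAA, letters bound by GATA factors that 18.6% of promoters held, or AACAAT, letters bound by SOX factors that 10.7% of promoters held.

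In wild-type EBs the collagen chains and Sparc rose most. Col4a1 was at 139, 17.0 and 23.2 TPM in replicates 1, 2 and 3 of day 0, and at 228, 213 and 187 TPM on day 8. All 3 libraries of day 8 lay above all 3 of day 0, of which replicate 1 was by far the highest. The log2 fold change was 2.41 (SE 0.79, adjusted p = 0.0113 from limma), and 3.27 with replicates 2 and 3 only. Col4a2 went from 65.9, 7.15 and 7.59 TPM to 111, 123 and 103 TPM (log2 fold change 2.76, SE 0.82, adjusted p = 0.00551 from limma, and 3.76 with replicates 2 and 3 only). Its groups did not overlap either. Sparc, which encodes a secreted collagen-binding glycoprotein, was the most abundant of the 10 genes in E14Tg2a on day 8. It was at 297, 75.7 and 74.3 TPM on day 0 and at 555, 751 and 677 TPM on day 8, again without overlap (log2 fold change 2.46, SE 0.51, adjusted p = 0.000185 from limma, and 3.23 with replicates 2 and 3 only).

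The laminin chains moved unequally. Lamb1, the beta chain, was at 93.3, 17.9 and 23.0 TPM on day 0 and at 105, 129 and 114 TPM on day 8 (log2 fold change 1.74, SE 0.44, adjusted p = 0.00137 from limma, and 2.52 with replicates 2 and 3 only). Lamc1, the gamma chain, was already at 147, 87.4 and 105 TPM on day 0, was at 49.5 and 62.5 TPM in the 2 libraries of day 6 and stood at 111, 156 and 113 TPM on day 8. Its change over the whole course was 0.18 on the log2 scale (SE 0.23). Lama1, the alpha chain of the laminin that primitive endoderm deposits, was at 80.0, 10.7 and 10.2 TPM on day 0, 58.3, 7.71 and 40.1 TPM on day 4, 11.5 and 24.1 TPM on day 6 and 43.9, 24.7 and 23.6 TPM on day 8. The libraries of day 8 lay within the range of day 0, which replicate 1 alone set, and the change of 0.47 (SE 0.70) did not pass the test. Lama5, the alpha chain of the laminin that ES cells themselves make, stayed between 34.2 and 73.2 TPM in all 33 libraries.

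The bridging components Nid1 and Hspg2 had their lowest libraries on days 4 and 6. Nid1 was at 33.5 to 49.4 TPM on day 0, 8.26 to 23.1 TPM on day 4, 9.33 and 9.50 TPM on day 6 and 32.0 to 78.2 TPM on day 8. Its fall from day 0 to day 4 was 1.60 on the log2 scale, as a change of -1.60 (SE 0.41, adjusted p = 0.00517 from limma), and its rise from day 6 to day 8 was 2.22 (SE 0.46, adjusted p = 0.00114 from limma). Hspg2 was at 72.0, 43.8 and 32.8 TPM on day 0, at 30.04 and 35.2 TPM on day 6 and at 77.0, 92.1 and 66.5 TPM on day 8. Its rise from day 6 to day 8 was 1.23 (SE 0.25, adjusted p = 0.000779 from limma). Nid2 was higher than Nid1 in every library, at 107 to 170 TPM on day 0 and at 70.3 to 136 TPM on day 8. Its change over the course was -0.50 (SE 0.25, adjusted p = 0.0909 from limma). It was -0.11 with replicates 2 and 3 only, and -0.73 (adjusted p = 0.0231 from limma) without day 8 replicate 2.

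Counted over the steps in E14Tg2a, Nid1 alone was called between days 0 and 4, where 4.07% of all genes were called lower. With replicate 1 of day 0 left out, or with replicates 2 and 3 only, Lamb1, Col4a1, Col4a2 and Sparc were also called as higher on day 4, which makes 5 members. Without day 4 replicate 2, Nid1, Col4a1, Col4a2 and Sparc were called, and blocking on the replicate number gave 3 members called. None of the 10 was called between days 4 and 6, where 9.33% of all genes were called in either direction. Between days 6 and 8, Lamc1, Nid1, Hspg2 and Sparc were called higher, 4 of 10 members against 6.53% of all genes. Without day 8 replicate 2, 2 of them passed both thresholds, and the same number did so without day 6 replicate 2, while Sparc was lost without day 6 replicate 3. Over the whole course Lamb1, Col4a1, Col4a2 and Sparc were called higher, 4 of 10 members against 15.9% of all genes. Col4a1 lost its call without day 0 replicate 2 (adjusted p = 0.0766 from limma) or replicate 3 (adjusted p = 0.0554 from limma), and Hspg2 gained one with replicates 2 and 3 only, at 1.03 against 0.72 (SE 0.22) with all libraries.

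**Figure D1:**
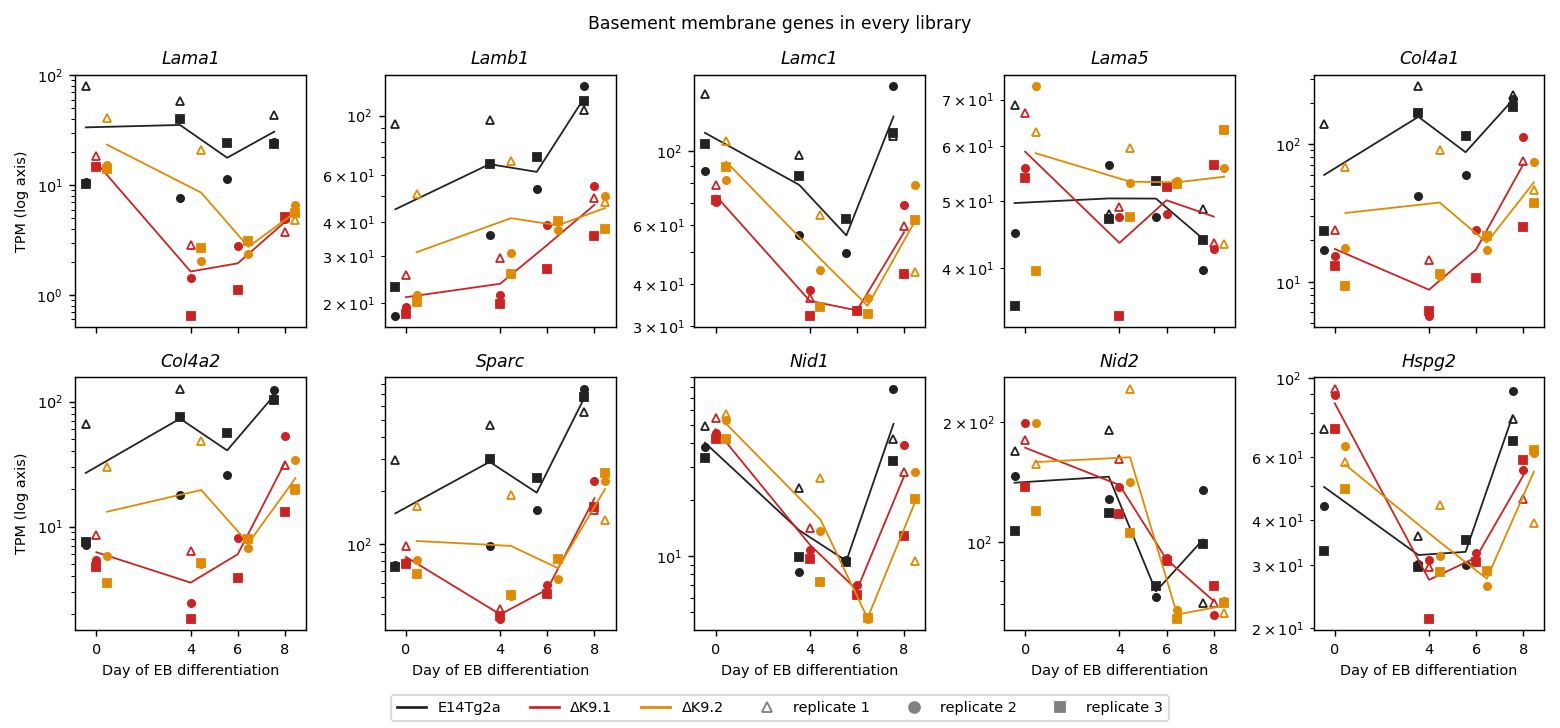
TPM (log axis) of the 10 basement membrane genes in every library, by day of EB differentiation and line, with lines through the group means and replicate 1 as open triangles. Lama5 stays between 34.2 and 73.2 TPM throughout, while Lama1, Col4a1, Col4a2 and Sparc of the clones (red and orange) lie below all E14Tg2a libraries (black) on days 6 and 8, and overlap with them on day 4. Replicate 1 of E14Tg2a and of ΔK9.2 is the highest of its line on days 0 and 4 in Lama1, Lamb1, Lamc1, Col4a1, Col4a2, Nid1 and Sparc. In Lama5, Nid2 and Hspg2 it is not always so.

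Whether the clones reached the same levels was asked day by day, with both clones averaged and set against E14Tg2a. On day 8, 6 of the 10 genes were called lower in the clones (Lama1, Lamb1, Lamc1, Col4a2, Nid1 and Sparc) and none higher, while 3.42% of all 16336 genes were called lower. The median log2 fold change of the 10 genes was -1.24, and that of all genes 0.00 (-0.0035). In bulk RNA, fewer cells of a type and less RNA per cell cannot be told apart. The units of these tests were libraries of E14Tg2a, ΔK9.1 and ΔK9.2. Their p-values therefore measure the spread between libraries of a line, not that between independently derived clones.

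The chains of the primitive endoderm laminin were all lower. Lama1 was at 43.9, 24.7 and 23.6 TPM in E14Tg2a, at 3.73, 4.97 and 5.18 TPM in ΔK9.1 and at 4.85, 6.56 and 5.61 TPM in ΔK9.2. The lowest wild-type library was more than 3 times the highest clone library. The mean in E14Tg2a was 5.97 times that of the clones, and the log2 fold change was -2.33 (SE 0.61, adjusted p = 0.00818 from limma). Lamb1 was at 105, 129 and 114 TPM in E14Tg2a, at 49.5, 54.5 and 35.5 TPM in ΔK9.1 and at 47.7, 50.1 and 37.9 TPM in ΔK9.2, with no overlap (log2 fold change -1.33, SE 0.38, adjusted p = 0.0142 from limma). Lamc1 was at 111, 156 and 113 TPM in E14Tg2a, at 59.8, 69.0 and 42.9 TPM in ΔK9.1 and at 43.5, 79.0 and 62.0 TPM in ΔK9.2. It differed by -1.09 (SE 0.20, adjusted p = 0.000497 from limma), also without overlap. Lama5 was not lower, at 39.8 to 48.6 TPM in E14Tg2a and 42.7 to 63.3 TPM in the clones (log2 fold change 0.19, 95% interval -0.18 to 0.55).

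Type IV collagen was lower too, with mean levels in E14Tg2a of 3.37 times (Col4a1) and 3.95 times (Col4a2) those of the clones. Col4a1 was at 228, 213 and 187 TPM in E14Tg2a, at 76.0, 113 and 25.0 TPM in ΔK9.1 and at 46.5, 74.4 and 37.4 TPM in ΔK9.2. Every clone library lay below every wild-type library, and the ΔK9.1 libraries spanned 4.53 times from lowest to highest. The log2 fold change of -1.90 (SE 0.69) just missed the threshold with an adjusted p of 0.0524 from limma, and passed it once libraries were blocked by number (adjusted p = 0.0115 from limma). Col4a2 was at 111, 123 and 103 TPM in E14Tg2a, at 31.2, 53.1 and 13.1 TPM in ΔK9.1 and at 19.5, 34.0 and 19.8 TPM in ΔK9.2 (log2 fold change -2.08, SE 0.71, adjusted p = 0.0398 from limma). The groups did not overlap, and the adjusted p rose above 0.05, to 0.0549 to 0.152, on removal of any 1 of 7 of the 9 libraries of that day. Sparc was at 555, 751 and 677 TPM in E14Tg2a, at 156, 227 and 161 TPM in ΔK9.1 and at 136, 227 and 251 TPM in ΔK9.2. Its lowest wild-type library was more than 2 times its highest clone library (log2 fold change -1.80, SE 0.44, adjusted p = 0.00502 from limma).

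Of the bridging components, Nid1 was called lower, and Hspg2 and Nid2 were not called. Nid1 was at 42.2, 78.2 and 32.0 TPM in E14Tg2a, at 28.1, 39.3 and 12.8 TPM in ΔK9.1 and at 9.37, 28.1 and 20.1 TPM in ΔK9.2. Replicate 2 was the highest library in each line, and ΔK9.1 replicate 2 lay above E14Tg2a replicate 3. The log2 fold change was -1.16 (SE 0.36, adjusted p = 0.0234 from limma), and it was -0.80 (adjusted p = 0.242 from limma) without E14Tg2a replicate 2. Hspg2 was at 77.0, 92.1 and 66.5 TPM in E14Tg2a, at 45.9, 55.3 and 58.9 TPM in ΔK9.1 and at 39.2, 61.9 and 63.1 TPM in ΔK9.2. The groups did not overlap, but the log2 fold change of -0.54 (SE 0.19, adjusted p = 0.0465 from limma) was below the size asked for. Nid2 was at 70.3, 136 and 98.7 TPM in E14Tg2a and between 65.4 and 77.7 TPM in the clones, and its difference of -0.48 (95% interval -0.92 to -0.04, adjusted p = 0.123 from limma) was not called.

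In 7 of the 10 genes (Lama1, Lamb1, Lamc1, Col4a1, Col4a2, Sparc and Hspg2) all 6 clone libraries of day 8 lay below all 3 wild-type libraries, which was true of 7.99% of all genes. In every gene but Lama5, each clone library also lay below the wild-type library with which it shared a number, in 6 of 6 pairs, which was true of 18.7% of all genes. E14Tg2a replicate 2 weighed most on the calls. Without it, 2 of the 10 genes (Lama1 and Sparc) passed both thresholds, with Lamc1 at -0.94, Lamb1 at -1.25 and Col4a2 at -2.01. Without ΔK9.1 replicate 3, or without ΔK9.2 replicate 1, 3 of the 10 were called. With replicates 2 and 3 only, 6 were called, with Col4a1 among them (adjusted p = 0.0293 from limma) and Nid1 no longer (adjusted p = 0.0512 from limma).

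**Figure D2:**
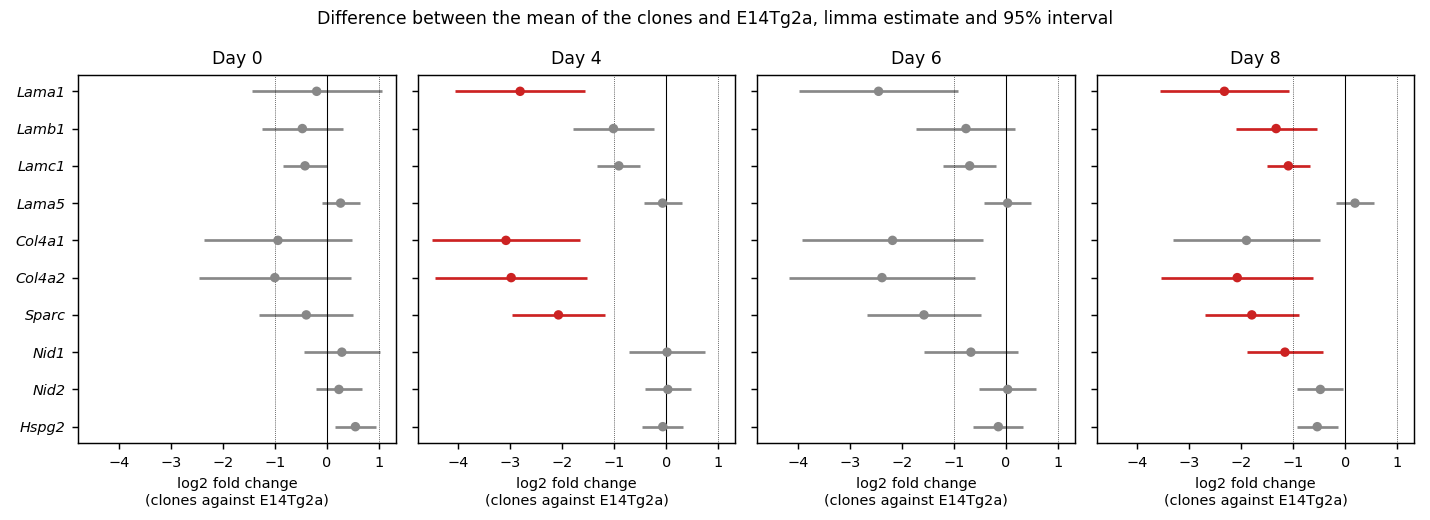
Log2 fold change of TPM + 1 of the averaged clones relative to E14Tg2a on days 0, 4, 6 and 8, for each of the 10 genes, as the limma estimate with its 95% interval. Genes in red were called, dotted lines mark an absolute log2 fold change of 1. The intervals of Lama5 lie around 0 on all days, and those of Lama1, Col4a1, Col4a2 and Sparc lie below 0 on days 4, 6 and 8.

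In part of the set, lower levels in the clones were already seen on day 4. Lama1 was at 58.3, 7.71 and 40.1 TPM in E14Tg2a, at 2.83, 1.44 and 0.65 TPM in ΔK9.1 and at 21.0, 2.03 and 2.65 TPM in ΔK9.2. The groups overlapped, because replicate 2 was low in wild type and replicate 1 high in ΔK9.2. Col4a1 had the same shape, at 265, 42.0 and 168 TPM in E14Tg2a, 14.5, 5.65 and 6.09 TPM in ΔK9.1 and 90.6, 11.01 and 11.3 TPM in ΔK9.2. Within each replicate number the wild type was above both clones, in 6 of 6 pairs, for Lama1, Lamb1, Lamc1, Col4a1, Col4a2 and Sparc, 6 of 10 members against 16.4% of all genes. Of the 10 genes, 4 were called lower (Lama1 at -2.81, Col4a1 at -3.09, Col4a2 at -2.99 and Sparc at -2.08, with SE of 0.61, 0.69, 0.71 and 0.44), against 0.71% of all genes. The same 4 genes were called with replicates 2 and 3 only, at -2.87, -3.22, -3.11 and -1.93. Lamc1 differed by -0.91 (adjusted p = 0.0127 from limma), below the size asked for, and Lamb1 by -1.02 (adjusted p = 0.166 from limma, and 0.0435 with blocks). Nid1, Nid2, Hspg2 and Lama5 had differences between -0.07 and 0.03. None of the 10 genes had all clone libraries below all wild-type libraries on day 4, which 5.95% of all genes had. The 4 calls were lost without E14Tg2a replicate 1 or without replicate 3 of that day, with log2 fold changes of -1.59 to -2.87. Col4a2 was also lost without ΔK9.1 replicate 3 (-2.85, adjusted p = 0.051 from limma) or ΔK9.2 replicate 2 (-2.73, adjusted p = 0.0551 from limma). When only the libraries of day 4 set the spread, none of the 10 genes was called.

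On day 6, with 2 libraries per line, no member was called, and 1.62% of all genes were called in either direction. By unadjusted p, 2781 genes were under 0.05. The log2 fold changes were -2.45 for Lama1 (SE 0.74), -2.18 for Col4a1 (SE 0.84), -2.38 for Col4a2 (SE 0.87) and -1.57 for Sparc (SE 0.54). Lama1 was at 11.5 and 24.1 TPM in E14Tg2a, 2.78 and 1.10 TPM in ΔK9.1 and 2.37 and 3.12 TPM in ΔK9.2. In 7 of the 10 genes (Lama1, Lamb1, Lamc1, Col4a1, Col4a2, Nid1 and Sparc) all 4 clone libraries lay below both wild-type libraries, which was true of 19.6% of all genes. Blocked by replicate number, Lama1, Col4a1 and Col4a2 were called (adjusted p = 0.0146, 0.0476 and 0.04 from limma).

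On day 0 no member was called, while 0.386% of all genes were called in either direction and 2871 genes had an unadjusted p under 0.05. The largest differences were those of Col4a1 (-0.94, SE 0.69) and Col4a2 (-1.0, SE 0.71). With replicates 2 and 3 only in every line they were -0.53 and -0.52, and with E14Tg2a replicate 1 alone left out, while the high ΔK9.2 replicate 1 stayed in, they were -0.03 and 0.00 (-0.00083). Within replicate numbers, Lamc1 and Col4a2 of the clones lay below the wild type in 6 of 6 pairs, which was true of 7.99% of all genes, and Col4a1 did so in 5 of 6. Nid1 of the clones lay above it in 6 of 6 pairs, as did 15.2% of all genes. Hspg2 was at 72.0, 43.8 and 32.8 TPM in E14Tg2a, at 93.3, 89.6 and 72.1 TPM in ΔK9.1 and at 58.2, 64.7 and 48.8 TPM in ΔK9.2. Its difference of 0.55 (SE 0.19, adjusted p = 0.103 from limma) was the only one of the 10 whose 95% interval, 0.16 to 0.94, lay above 0, and it was 0.81 with replicates 2 and 3 only.

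The clones did induce part of the set. Between day 0 and day 8 of the clones, Col4a1 (1.45, SE 0.56), Col4a2 (1.68, SE 0.58) and Sparc (1.05, SE 0.36) were called higher, 3 of 10 members against 10.7% of all genes. Lama1 (-1.65, SE 0.50), Nid1 (-1.20, SE 0.29) and Nid2 (-1.21, SE 0.18) were called lower, 3 of 10 members against 10.4% of all genes. Lama1 thus ended at 3.73 to 6.56 TPM in the clones, below its 13.9 to 41.0 TPM in the same lines on day 0. Lamb1 differed by 0.88 (adjusted p = 0.0157 from limma), and by 1.11 with replicates 2 and 3 only, where it was called and Nid1 (-0.95) no longer was. Leaving out single libraries moved the number of members called between 4 and 7. Col4a1 was lost on removal of any 1 of 6 libraries (adjusted p = 0.0544 to 0.0893 from limma), and Sparc and Nid1 fell just under the size asked for in 4 and 2 such fits (0.93 to 0.99, and -0.98 and -0.99).

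A test of the difference between lines in the change over 8 days called 1 member, Hspg2, lower by 1.09 on the log2 scale, as a difference of -1.09 (SE 0.27, adjusted p = 0.017 from limma), against 2.55% of all genes called lower. It rose by 0.72 in E14Tg2a and changed by -0.37 in the averaged clones. The clones were unlike in this, with means going from 85.0 to 53.4 TPM in ΔK9.1 and from 57.2 to 54.7 TPM in ΔK9.2. The estimates for Lama1 (-2.13, SE 0.86), Nid1 (-1.45, SE 0.51) and Sparc (-1.40, SE 0.62) were larger but had adjusted p-values of 0.136, 0.085 and 0.177 from limma. With replicates 2 and 3 only, 5 members were called, Lama1 (-2.40), Lamb1 (-1.41), Nid2 (-1.05), Hspg2 (-1.19) and Sparc (-1.76). Blocking gave 2 members, Hspg2 and Nid1. The Hspg2 call was lost without E14Tg2a replicate 2 or replicate 3 of day 0, E14Tg2a replicate 2 of day 8 or ΔK9.2 replicate 1 of day 8, where its difference lay between -0.84 and -1.04. The day 8 libraries of the clones were also set against the earlier wild-type libraries of day 6. No member was called between them, where 2.18% of all genes were called in either direction and 3699 genes had an unadjusted p under 0.05. Sparc (-0.02, 95% interval -1.06 to 1.02) and Lamc1 (0.06, 95% interval -0.42 to 0.54) lay near 0. Nid1 was at 1.06 (adjusted p = 0.119 from limma) and Hspg2 at 0.70 (adjusted p = 0.051 from limma). Lama1 was at -1.54 (95% interval -2.98 to -0.10), with replicates 2 and 3 only at -1.43, where it and Nid1 (1.21) were called. These comparisons share libraries with those above.

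Each clone was also compared alone with the same 3 wild-type libraries of day 8. In ΔK9.1, Lama1 (-2.45), Lamc1 (-1.14) and Sparc (-1.87) were called lower, 3 of 10 members against 2.41% of all genes, and 5 members were called with blocks. In ΔK9.2, Lama1 (-2.20), Lamb1 (-1.34), Lamc1 (-1.05), Nid1 (-1.38) and Sparc (-1.73) were called lower, 5 of 10 members against 4.24% of all genes. Without E14Tg2a replicate 2 no member was called in either clone, and the same held for ΔK9.1 without its replicate 3 and for ΔK9.2 without its replicate 1. Lamb1 in ΔK9.1 differed by -1.32, with an adjusted p of 0.0503 from limma. Between the clones, limma called no gene (0% of all genes; 990 genes had an unadjusted p under 0.05), and the differences of the 10 members lay between -0.45 (Nid1, 95% interval -1.30 to 0.40) and 0.25 (Lama1, 95% interval -1.19 to 1.69). Intervals this wide leave differences of more than 2-fold between the clones undetectable for several members.

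How the subunits kept in proportion was examined with ratios of TPM within each library, compared on day 8 by two-sided exact permutation tests of 3 wild-type against 6 clone libraries, whose smallest possible p is 0.0238. The ratio of Col4a1 to Col4a2 lay between 1.74 and 3.31 in all 33 libraries, with a median of 2.30, although Col4a2 itself ranged from 1.84 to 126 TPM. On day 8 it was 1.74 to 2.05 in E14Tg2a and 1.89 to 2.43 in the clones, a difference of 0.20 on the log2 scale (exact permutation p = 0.0952, 0.159 after Benjamini-Hochberg adjustment over 5 ratios). The ratio of Lamb1 to Lamc1 was 0.21 to 0.63 in the E14Tg2a libraries of day 0 and 0.83 to 1.01 in those of day 8. In the clones of day 8 it was 0.61 to 1.10, a log2 difference of -0.24 (exact permutation p = 0.286, adjusted 0.286). The ratio of Lama1 to Lamc1 on day 8 was 0.16 to 0.40 in E14Tg2a and 0.06 to 0.12 in the clones, and that to Lama5, which itself differed by 0.19 on the log2 scale, was 0.54 to 0.90 in E14Tg2a and 0.09 to 0.12 in the clones. These log2 differences of -1.43 and -2.73 both had the smallest exact permutation p the design allows, 0.0238, and an adjusted p of 0.0595, so that neither passed 0.05 over the 5 ratios. All 6 clone libraries come from ΔK9.1 and ΔK9.2, so these p-values measure the spread between libraries, not that between clones. The permutations also ignore the pairing by replicate number. Permuted within numbers, the smallest possible p is 0.0741, and both ratios had an adjusted exact permutation p of 0.123. The ratio of Nid1 to Nid2 differed by -0.72 (exact permutation p = 0.238, adjusted 0.286).

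**Figure D3:**
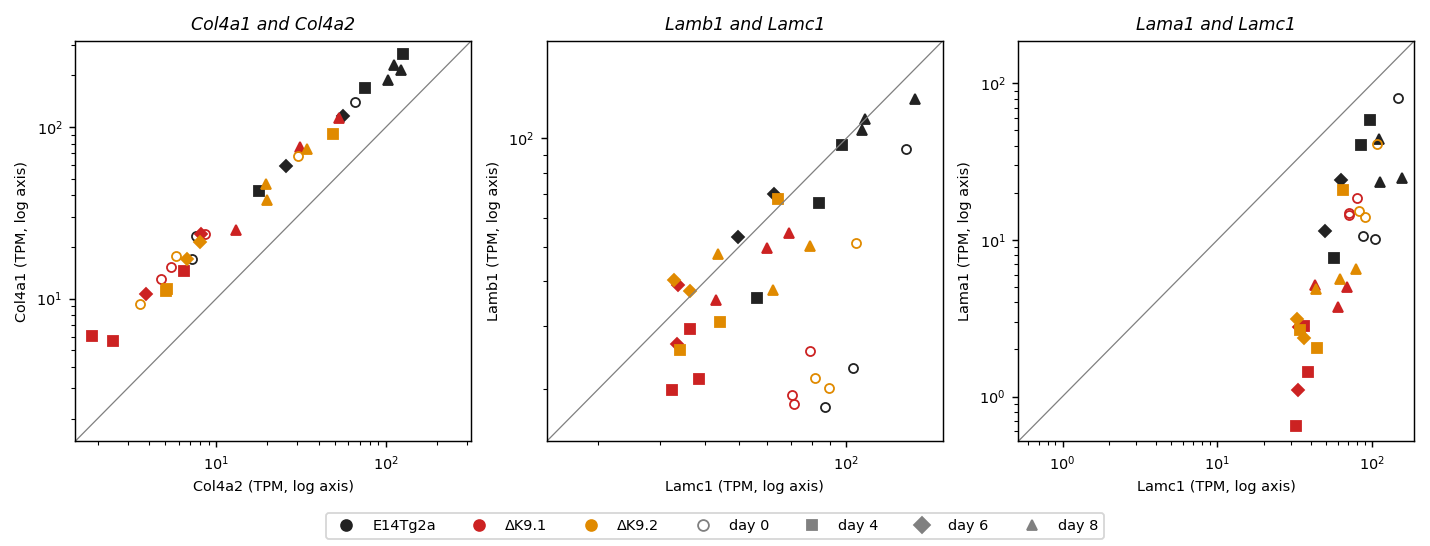
TPM of Col4a1 against Col4a2, Lamb1 against Lamc1 and Lama1 against Lamc1 (log axes) in the 33 libraries, coloured by line and shaped by day, with the line of equal levels in grey. The collagen pair runs parallel to that line, with ratios of 1.74 to 3.31, while the Lama1 points of the clones lie farther below it on day 8, at 0.06 to 0.12 of Lamc1, than on day 0 (open circles), at 0.16 to 0.38.

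The other genes of the basement membrane were taken from lists fixed by name, which were chosen with earlier results of these data known. Of 30 further matrix components, 21 were in the table. From day 0 to day 8 of E14Tg2a, 13 of them were called higher and 1 lower, while 15.9% of all genes were called higher, and their median log2 fold change was 1.58, against 0.05 for all genes. Among them, Lama4, the laminin alpha chain of vessels and mesenchyme (4.17), Tinagl1, a secreted matrix protein (4.02), and the type IV collagen chain Col4a5 (3.87) had the largest values. On day 8, 7 of the 21 were called lower and 1 higher in the clones, with a median of -0.60, where 3.42% of all genes were called lower and 0.826% higher. The same shares stand behind the counts of the next lists. Smoc2, a relative of Sparc (-2.25, SE 0.27), Lama4 (-2.07, SE 0.36), Tinagl1 (-1.92, SE 0.56) and Fbln2, which encodes fibulin (-1.26, SE 0.27), had the largest differences. Ntn1, which encodes the guidance cue netrin, went the other way in both comparisons, with a change of -2.75 (SE 0.27) in E14Tg2a and standing 1.23 (SE 0.23) higher in the clones.

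Cell-surface receptors of the basement membrane were mostly not called. Of 11 receptor genes in the table, such as integrins and dystroglycan, 1 was called lower on day 8, the laminin-binding integrin chain Itga7 (-1.02, SE 0.20), and none higher, with a median of -0.26. Of the 13 genes for modification and secretion of collagen, 4 were called lower and none higher (median -0.75), the prolyl hydroxylase genes P4ha1 (-1.26, SE 0.31), P3h1 (-1.17, SE 0.18) and P4ha2 (-1.12, SE 0.40) and the collagen chaperone gene Serpinh1 (-1.12, SE 0.37). Of the 12 matrix proteases and inhibitors, 7 were lower and none higher (median -1.03). They included the membrane protease gene Mmp14 (-1.91, SE 0.26), Adamts1 (-1.47, SE 0.30), Timp3, a protease inhibitor (-1.28, SE 0.32), and Reck, another inhibitor (-1.20, SE 0.22). Itga7 was at -0.98, below the size asked for, when libraries were rescaled by their median ratio, and was not called in 5 other alternatives. E14Tg2a replicate 2 of day 8 weighed on these lists too. Without it, 4 of the 21 other components, 0 of the 11 receptors, 0 of the 13 collagen modification genes and 1 of the 12 proteases and inhibitors were called.

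**Figure D4:**
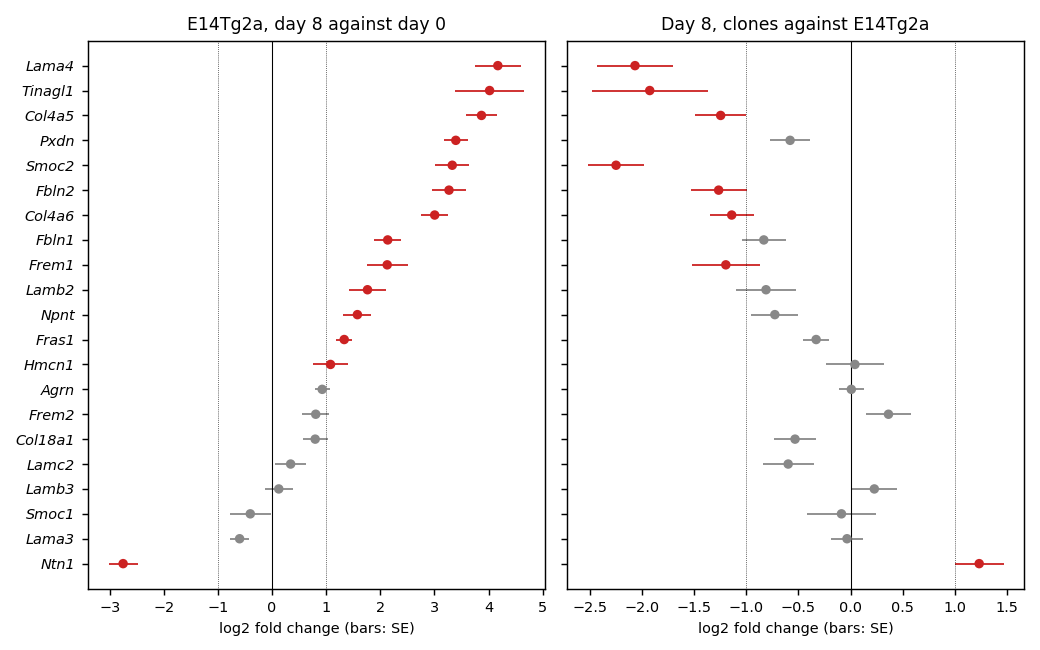
Log2 fold change of TPM + 1 (points, with SE as bars) for the 21 other basement membrane components, in E14Tg2a from day 0 to day 8 and on day 8 for the clones relative to E14Tg2a. Called genes are in red and dotted lines mark an absolute value of 1. Of the 21, 13 rise in E14Tg2a and 7 are lower in the clones, while Ntn1 moves the opposite way in both panels.

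Markers of several cell types moved with the 10 genes on day 8. Of the primitive endoderm factors, 4 of 8 were called lower in the clones, against 3.42% of all genes, and their summed level was 197 to 270 TPM in E14Tg2a and 33.9 to 144 TPM in the clones. Of 14 visceral endoderm markers, 12 were lower (730 to 862 TPM in sum against 33.1 to 166 TPM), of 5 parietal endoderm markers 2 (65.3 to 111 TPM against 28.5 to 131 TPM), of 8 endothelial markers 7 (87.2 to 203 TPM against 27.6 to 153 TPM), of 8 mesenchymal markers 6 (412 to 1766 TPM against 52.8 to 260 TPM) and of 7 cardiomyocyte markers 6 (62.8 to 184 TPM against 20.4 to 53.5 TPM). Of 8 pluripotency genes, 4 were higher in the clones, against 0.826% of all genes (154 to 312 TPM against 333 to 964 TPM). In ΔK9.1, 4 of the 14 visceral endoderm markers were under 1 TPM in all 3 libraries, and likewise 4 of 14 in ΔK9.2. On day 4, when 0.71% of all genes were called lower, 4 of 8 primitive endoderm factors were (17.5 to 106 TPM in sum in E14Tg2a and 2.40 to 35.1 TPM in the clones), as were 11 of 14 visceral endoderm markers. None of the parietal endoderm (42.9 to 246 TPM in E14Tg2a and 9.37 to 86.0 TPM in the clones), endothelial, mesenchymal or cardiomyocyte markers was called on that day. Of the 8 mesenchymal markers, 6 were under 1 TPM in all 3 E14Tg2a libraries of day 4, as were 4 of the 8 endothelial and 3 of the 7 cardiomyocyte markers. On day 6, 1 of 8 primitive endoderm factors, 3 of 14 visceral and 0 of 5 parietal endoderm markers were called lower. So were 1 of 8 endothelial, 1 of 8 mesenchymal and 2 of 7 cardiomyocyte markers, where 1.62% of all genes were called in either direction. The parietal sums of day 6 overlapped, at 161 and 224 TPM in E14Tg2a and 60.5 to 220 TPM in the clones. Without E14Tg2a replicate 2 of day 8, 2 endothelial and 0 parietal endoderm markers were called, and without ΔK9.1 replicate 2, 7 of the 8 primitive endoderm factors. The part of any of these cell types in the differences of the 10 genes was not tested.

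Within each group of line and day, the library highest in a member was set against the library highest in each marker sum. Both were the same library in 6 to 11 of the 12 groups for the primitive endoderm sum over the 10 genes (median 10, against 5 over all 16336 genes). The counts were 5 to 10 for visceral endoderm (median 8.5, all genes 5), 6 to 11 for parietal endoderm (9.5, all genes 6) and 4 to 12 for endothelium (9.5, all genes 6). They were 2 to 7 for mesenchyme (5, all genes 5), 6 to 9 for cardiomyocytes (7.5, all genes 5) and 0 to 6 for pluripotency genes (2.5, all genes 4). The libraries behind each count share their depth and their preparation, and a TPM total.

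**Figure D5:**
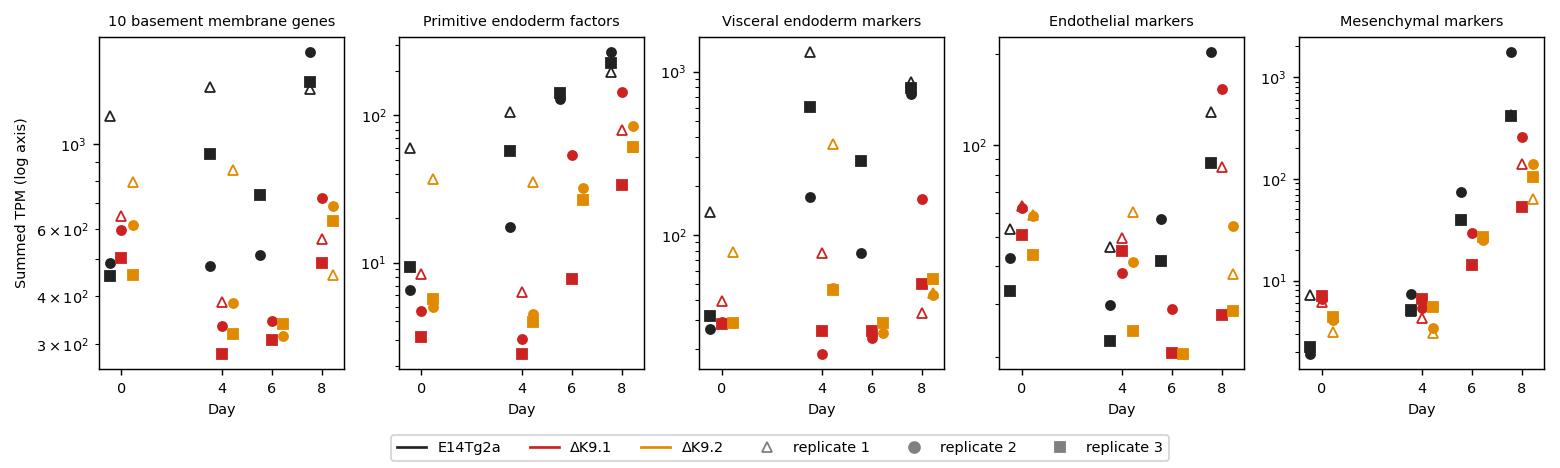
Summed TPM (log axis) of the 10 basement membrane genes and of the marker lists of primitive endoderm, visceral endoderm, endothelium and mesenchyme in every library, by day and line, with replicate 1 as open triangles. The sums of the 10 genes run from 1392 to 1742 TPM in E14Tg2a on day 8 and from 456 to 724 TPM in the clones. Replicate 1 of E14Tg2a and of ΔK9.2 is the highest of its line in both endoderm sums on days 0 and 4.

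Over the 12 group means, the members differed in how closely each followed the mean of the other 9. Pearson's r of log2(TPM + 1) was 0.90 for Lamc1, 0.89 for Lama1, 0.80 for Sparc, 0.72 for Col4a1 and 0.71 for Col4a2, and it was 0.05 for Nid2 and -0.09 for Lama5. Among the 12070 other genes that reached a group mean of 5 TPM, those most like the mean of the standardised values of the 10 were Nagk (r = 0.95), Tmem41b, Pcyt1a, Ap2a2, Nudt13, Plod2 (r = 0.93), Hint3 and Sec24a (r = 0.92). Of these, Plod2 encodes a lysyl hydroxylase that acts on collagen and Sec24a a component of the coat of secretory vesicles. The means were 75.4 TPM in E14Tg2a on day 0 and 115 TPM on day 8 for Plod2, and 64.0 and 59.1 TPM in ΔK9.1 and ΔK9.2 on day 8. The 12 means share lines and days, and these coefficients describe them only.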

How the data were processed

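The authors prepared stranded poly-A libraries and aligned the paired-end reads to mm10 with STAR. According to the paper, the authors computed the deposited TPM values with RSEM, after leaving out outliers found by PCA. Whether these outliers were libraries or transcripts is not stated there. The paper gives an approximate depth common to all libraries. The number of reads behind each library is not kept in TPM, so its exact depth is unknown here. Versions and annotation are not given in the sources used here. The table also holds log2 fold changes and FDR values that the authors computed with DESeq2, which were not used.

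All tests used limma 3.58.1 (trended empirical Bayes) in R 4.3.3 on log2(TPM + 1), with the 33 libraries fitted as 12 groups and Benjamini-Hochberg adjustment over 16336 genes. Ratios were tested by exact permutation with scipy 1.17.1 (Python 3.11.15), and figures were drawn with matplotlib 3.10.9. The fits were tested on simulated data. Gene positions are from GENCODE M21, and start windows from RefSeq (GRCm38.p6).

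The lines were differentiated in parallel, so libraries of 1 number are paired. After removal of group means, 33 pairs of the same number and day had a median correlation of 0.222 (31 above 0.1, lowest -0.0129), and 60 pairs of different numbers had -0.127. The members and lists were chosen with earlier results of these data known. All members were named, with up to 4 genes of each other list but the marker lists, those past the thresholds with the largest changes on day 8. The marker lists were given as counts and sums. The 8 genes most like the members and Nanog were named too, and Ntn1 and Col4a5 were chosen after their values were seen.

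The alternatives changed the pseudocount to 0.1, asked for 5 TPM in a group, or used median-ratio rescaling, the replicate block over all libraries or within a day, only the libraries compared, and each library left out in turn. Fits without replicate 1 were added after seeing the data.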

Additional observations from a re-analysis of the deposited data

Results flagged for a closer look

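Hspg2, which encodes perlecan, was the 1 member whose course over 8 days was called different in the clones by a test of the difference itself. The difference on the log2 scale was -1.09 (SE 0.27, adjusted p = 0.017 from limma), from a rise of 0.72 in E14Tg2a and a change of -0.37 in the averaged clones. The mean went from 85.0 to 53.4 TPM in ΔK9.1 and only from 57.2 to 54.7 TPM in ΔK9.2. The clones were above E14Tg2a by 0.55 on day 0 and differed by -0.54 on day 8, and neither difference was called. With only the libraries compared in the fit the adjusted p was 0.0647 from limma, and the call was also lost without E14Tg2a replicate 2 or 3 of day 0, E14Tg2a replicate 2 of day 8 or ΔK9.2 replicate 1 of day 8 (-0.84 to -1.04).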

How the results depend on the processing

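Of 34 called values of the 10 genes, 11 kept their call under every alternative run and 23 lost it under at least 1. The sign changed in 2 of 95 values, neither of them called, Lamb1 on day 0 without E14Tg2a replicate 1 (0.24, with -0.91 at the other end of the range) and Nid1 between the clones with replicates 2 and 3 only (0.073). With a pseudocount of 0.1, the genes called were 2000 (E14Tg2a, day 4 against day 0), 106 (clones on day 0), 196 (day 4), 1155 (day 8) and 1 (between the clones). With the replicate block, which uses the pairing of libraries by assay, the members called were 3 (E14Tg2a, day 4 against day 0), 3 (clones on day 6), 5 (ΔK9.1 on day 8), 2 (difference of changes) and 1 (clones of day 8 against E14Tg2a of day 6). With the block within 1 day they were 4 on day 6 (441 genes) and 6 for ΔK9.1 on day 8, and 11 genes were called between the clones. With only the libraries compared, fewer samples set the spread, and the calls were 730 genes (E14Tg2a, day 8 against day 6), 0 members and 12 genes (day 4), 5 genes (day 6), 197 genes (day 8), 0 members and 1 gene (ΔK9.1), 3 members and 59 genes (ΔK9.2), 0 members and 228 genes (difference of changes) and 49 genes (clones of day 8 against E14Tg2a of day 6). With replicates 2 and 3 only, a choice made after seeing the data, members called were 5 (E14Tg2a, day 4 against day 0), 4 (day 6), 5 (ΔK9.1), 5 (difference of changes) and 2 (clones of day 8 against E14Tg2a of day 6), and 136 genes were called on day 0. With replicate 1 left out on day 0 alone, also chosen then, the values were 5 members (E14Tg2a, day 4 against day 0) and 117 genes (clones on day 0).

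With each library left out in turn, genes called ranged from 872 to 1647 (E14Tg2a, day 6 against day 4, with 0 to 1 members) and from 47 to 132 (day 0), 38 to 181 (day 4, 0 to 5 members), 58 to 531 (day 6, 0 to 1 members) and 372 to 953 (day 8, 2 to 7 members) between the clones and E14Tg2a. They ranged from 233 to 812 for ΔK9.1, 450 to 1131 for ΔK9.2, 0 to 81 between the clones, 168 to 749 for the difference of changes and 152 to 508 for the clones of day 8 against E14Tg2a of day 6. A group of day 6 then has 1 library, assumed to vary like the others. Why these values moved was otherwise not tested, and TPM without read totals limits what can be said of low values.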
